A study of Homo sapiens with 24 samples.

Results

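The cytosolic ribosomal protein genes encode the proteins of the ribosome of the cytoplasm, the particle that translates messenger RNA. They were picked by symbol from the gene tables: RPL or RPS followed by a number and, where present, a closing A or X, together with RPLP0, RPLP1, RPLP2 and RPSA. The rule found 77 of the 23207 listed genes, 46 of the large subunit and 31 of the small subunit. The rule uses symbols and no measured value. All 77 passed the filter on low counts in both sets of libraries.

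Ribosomal proteins assemble with ribosomal RNA in fixed proportions, and their messenger RNAs are among the most abundant of a growing cell. Most of these messengers begin with a C followed by a run of pyrimidines, the terminal oligopyrimidine (TOP) tract, through which mTORC1 and the binding protein LARP1 set how much of the messenger is translated, so that protein output can move without the messenger level. In LNCaP, a hormone-sensitive prostate cancer line, androgen drives growth and with it the demand for ribosomes.

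The series held 24 RNA-seq libraries in 8 groups of 3, all from LNCaP cells stably carrying a lentiviral short hairpin RNA after puromycin selection. The hairpin was a scrambled control (NTC) or one against SIRT1, a deacetylase. In serum-supplemented medium (FBS) the groups were NTC and the knockdown named shSIRT1. In charcoal-stripped serum (CSS), which is depleted of androgens, NTC and the knockdown named 10 were treated for 24 h. Before treatment these cells were kept for 48 h in FBS and 24 h in CSS. The treatments were vehicle, 1 nM dihydrotestosterone (DHT, the most potent natural androgen), or that dose of DHT together with enzalutamide, an androgen receptor antagonist, at 10 µM. Whether the knockdowns named shSIRT1 and 10 carry one hairpin is not given in the labels, which call the knockdown cells stable clones, so that SIRT1 loss and a difference between clones cannot be told apart. Nothing in the labels says that the 3 libraries of a group came from separate cultures, so p-values measure the spread between these libraries, which may be technical. SIRT1 was 38.2 ± 1.6 CPM (counts scaled to a common library total, mean ± SD, n = 3) in NTC and 8.11 ± 0.788 in shSIRT1, and in stripped serum 49.2 to 58.7 CPM over the NTC group means against 15.6 to 19.9 over those of knockdown 10.

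The starts of the genes that the results below turn on show how far a pyrimidine run begins at the annotated first base. They are RefSeq promoter sequences on GRCh38.p14, from 30 bases before the annotated start to 20 bases from it on, 5′ to 3′ on the gene's strand, with the run of C and T that begins at the annotated first base in capitals. The first 7 are the genes that fell in knockdown 10 with vehicle, and the last 4 are genes that were called higher in knockdown 10 under DHT.
RPL3, chr22:39319604-39319653, minus strand: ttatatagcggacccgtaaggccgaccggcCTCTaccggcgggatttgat
RPL4, chr15:66504836-66504885, minus strand: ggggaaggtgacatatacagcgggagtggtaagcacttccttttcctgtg
RPL12, chr9:127451387-127451436, minus strand: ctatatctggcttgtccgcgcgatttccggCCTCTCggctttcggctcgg
RPL13A, chr19:49487578-49487627, plus strand: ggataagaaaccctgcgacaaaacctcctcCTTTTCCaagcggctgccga
RPL14, chr3:40457309-40457358, plus strand: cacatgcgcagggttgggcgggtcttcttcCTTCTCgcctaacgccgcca
RPL27A, chr11:8682762-8682811, plus strand: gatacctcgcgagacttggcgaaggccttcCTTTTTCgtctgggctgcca
RPS3, chr11:75399488-75399537, plus strand: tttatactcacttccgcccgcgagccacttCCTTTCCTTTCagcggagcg
RPL28, chr19:55385902-55385951, plus strand: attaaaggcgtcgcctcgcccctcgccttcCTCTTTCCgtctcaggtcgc
RPL41, chr12:56116603-56116652, plus strand: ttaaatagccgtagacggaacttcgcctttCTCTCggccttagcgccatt
RPS24, chr10:78033833-78033882, plus strand: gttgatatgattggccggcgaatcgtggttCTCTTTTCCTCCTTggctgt
RPS26, chr12:56041888-56041937, plus strand: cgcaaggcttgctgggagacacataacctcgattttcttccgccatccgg
The run was 14 bases in RPS24, 11 in RPS3, 7 in RPL13A and 4 in RPL3, and there was none at the annotated first base of RPL4 or RPS26.

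The promoter table matched 62 of the 77 members, with 77 annotated starts among them. A first base C followed by pyrimidines to a run of at least 5 stood at 46 of these 77 starts (59.7%), against 1429 of 35116 starts in the whole table (4.07%). Counted by gene, 46 of 62 members (74.2%) had such a start, against 5.14% of 27305 genes. The letters CGGAAG on either strand, the core bound by ETS factors, stood within 250 bases before and 50 after the start in 59.7% of member starts and 19.5% of all. AGAACA on either strand, a core motif of the androgen receptor, stood in 14.3% of member starts and 14.8% of all. These are matches of letters in this window and not binding sites.

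Together the 77 genes took 7.25% to 8.86% of all gene counts in the FBS libraries, which held 11.9 to 14.2 M counts each, and 7.48% to 9.77% in the stripped-serum libraries, which held 25.2 to 35.1 M. Large-subunit genes took 1.65 to 1.71 times as many counts as small-subunit genes over the 8 group means. On the per-length scale (TPM) the median member stood at 2642 TPM in FBS and 3497 in stripped serum, from 38.2 and 228 TPM for RPL21 to 9598 for RPL41 and 16443 for RPS27. RPL41, which encodes the smallest protein of the large subunit, and RPS18 were among the 3 highest in both sets, and RPS2 was among them in FBS. RPL27A and RPL22 were the next lowest after RPL21 in both sets. The transcript models of RPL27A (4879 bases) and RPL22 (2085 bases) were longer than the median member's 705 bases, and per-length levels ran against model length (Spearman rho of -0.56 in stripped serum and -0.36 in FBS over the 77 genes of the same libraries, given as a description). The sets differed in the length that the quantification took off each transcript, 50 bases in FBS and 224 to 252 in stripped serum, so levels were not compared between sets.

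Some members share their reads with near-identical copies, and their values are uncertain for that reason. The pseudogene row RPL21P28 held 98.3% of the counts of it and RPL21 in FBS and 93.1% in stripped serum, and RPL21 itself was at 0 in replicate 3 of both FBS groups. RPL13AP5 held 45.4% and 59.3% of the counts of it and RPL13A. RPL36A shared 26.6% of the summed counts with the read-through row RPL36A-HNRNPH2 in FBS and 2.41% in stripped serum. RPL13A is therefore also given below with RPL13AP5 added, and RPL21 with RPL21P28 added where it stands out.

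Members varied more between libraries of a group than other genes did, and some libraries stood apart. Within groups, the SD of a member's log2 CPM had a median of 0.13 in both sets, against 0.08 for the 403 (FBS) and 412 (stripped serum) other genes of similar or higher level. These other genes were chosen by level and not by length. In stripped serum the median SD was 0.17 over members under 600 bases and 0.11 over the rest. Replicate 2 of knockdown 10 with DHT had the highest member share of all, 9.77%, where its group's other libraries had 7.48% and 7.94%. In that library 75 of 77 members were above the mean of its group's other libraries, by a median of 0.39 on the log2 scale, and 49 of 77 reached their maximum over the 18 stripped-serum libraries. RPS29, a short protein of the small subunit, stood at 601 CPM there against 164 and 231 CPM. The difference from the other libraries of the group was largest in short genes, among members and other genes alike. Its median was 0.63 over the 29 members under 600 bases and 0.28 over the 32 members of 600 to 1000 bases. Over other genes it was 0.46 (196 genes) and 0.19 (702) in those bands. The longer bands were 1000 to 2000, 2000 to 4000 and 4000 bases or more. There it was 0.12 (11 members), 0.45 (3) and 0.22 (2), against 0.04, -0.03 and -0.06 (4429 genes) in other genes. Members thus lay above other genes in every band. Replicate 1 of the same group lay on the other side, with short members 0.30 below the stripped-serum mean. In FBS both libraries numbered 3 were high, at 8.23% (NTC) and 8.86% (shSIRT1) against 7.25% to 7.47% in the other libraries, and 70 of 77 members had their FBS maximum in replicate 3 of shSIRT1. FBS replicates 1 and 2 of each group were the most alike pairs, yet differed by more than sampling noise (chi-square per gene 1.53 and 1.59, where 1 is noise alone). What sets these libraries apart was not tested, and the counts and medians below that rest on them are given with and without them. Replicate 2 of knockdown 10 with DHT was singled out for its high member values. Fits without it lower the members in that group, so the shares they call are not read as results about the members. Counts with a library left out that stand without the share of all genes called are not read so either.

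**Figure D1:**
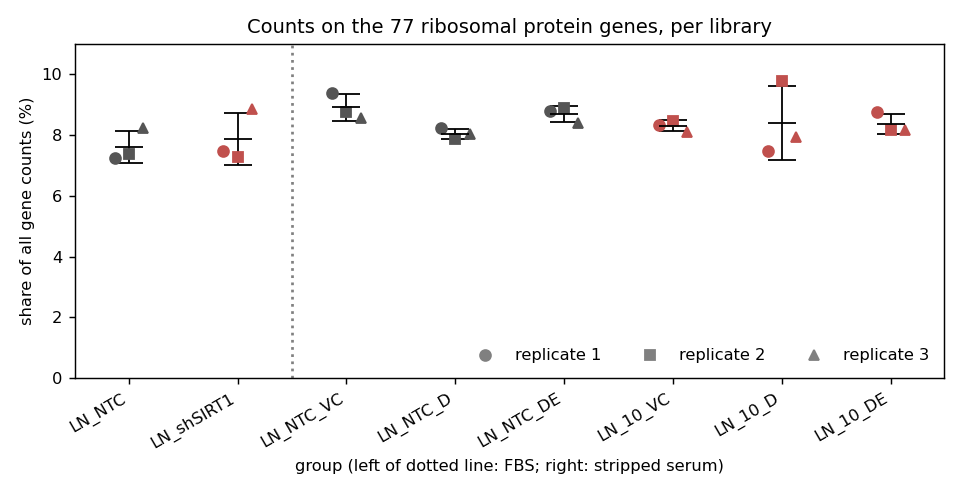
Share of all gene counts that fell on the 77 ribosomal protein genes (y axis, percent) in each library, by group (x axis); symbols give the replicate number, the short bar the mean of 3 libraries and the whiskers 1 SD. Replicate 2 of LN_10_D at 9.77% and the FBS libraries numbered 3 at 8.23% and 8.86% lie above the rest of their groups.

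**Figure D2:**
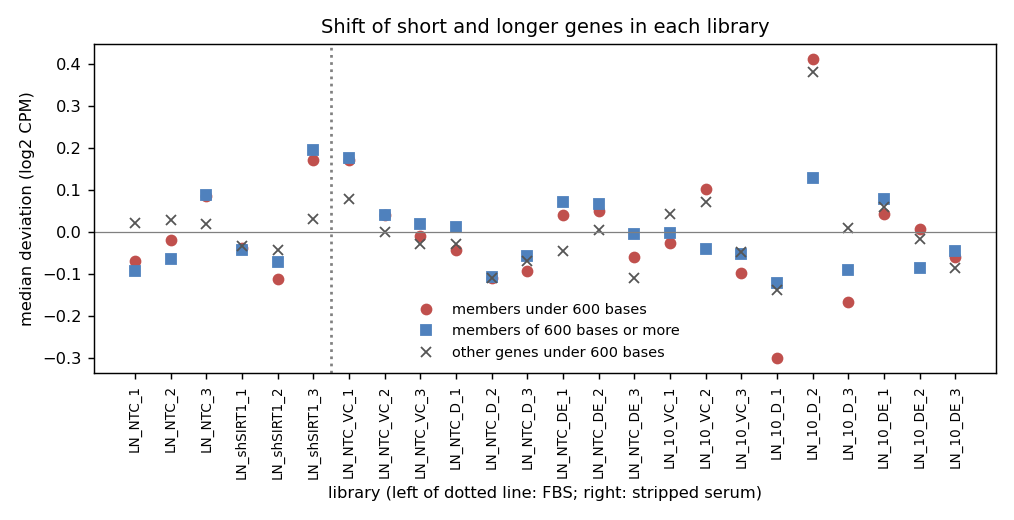
Median deviation of each library from the mean of its set (y axis, log2 CPM) for members under 600 bases, members of 600 bases or more and other genes under 600 bases; libraries on the x axis. In LN_10_D_2 short members (0.41) and other short genes (0.38) are both raised, and longer members less (0.13).

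The luminal prostate markers KLK3 (6.05 to 600.5 TPM over the libraries), KRT8 (357 to 732 TPM) and FOLH1 (1003 to 1602 TPM) were present in every library, while basal, fibroblast and blood or vessel markers summed to at most 1.56, 8.60 and 11.8 TPM. In what follows, log2 fold changes are given with their standard error, and a gene is said to have risen or fallen where edgeR's quasi-likelihood test gave a Benjamini-Hochberg adjusted p under 0.05 over all genes tested, 14329 in FBS and 14558 in stripped serum.

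In FBS no member passed the test between shSIRT1 and NTC, where 2.71% of all genes were called, 0.509% higher and 2.21% lower. By edgeR 1 of 77 members had an unadjusted p under 0.05, and DESeq2 and limma on TPM also called 0. The fold changes were small, with a median of 0.05 over the members and 0.01 over all genes, 60 positive and 17 negative. RPS15, a small-subunit protein at the decoding site, stood at 510, 471 and 434 CPM in NTC and at 407, 392 and 406 CPM in shSIRT1, and its groups did not overlap (lower without overlap in 1 of 77 members and 12.1% of all genes, higher in 0 and 10.5%). Its difference was -0.23 ± 0.07 (edgeR adjusted p = 0.12), the lowest of the 77. RPS28 (-0.16 ± 0.08) was next lowest, and RPL21 (0.17 ± 1.03), RPS15A (0.14 ± 0.12) and RPLP1 (0.14 ± 0.10) highest, none past the test.

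The libraries of the same number in this comparison deviated together weakly (correlations 0.14, 0.16 and 0.35, with up to 0.15 between unlike numbers). A fit with the replicate number as a block called 5 members, RPS24, RPL17 and RPS6 higher (0.14, 0.13 and 0.13) and RPS15 and RPS28 lower (-0.23 and -0.17). Of all genes, 4.47% were called higher and 7.22% lower in it. Without both libraries numbered 3 the test called 14 members, 8 higher and 6 lower, with a median of 0.01, from 2 libraries a group. Other genes were called in that fit too, among them 2 of 76 mitochondrial ribosomal protein genes higher and 14 lower. The share of all genes called in it is not given here, so the 14 are not read as particular to the members. Without NTC replicate 3 alone the test called 1 member. RPS6, the substrate of S6 kinase in the small subunit, was 1772, 1837 and 2119 CPM in NTC and 1951, 1916 and 2405 CPM in shSIRT1. Its groups overlapped, and within each number shSIRT1 was the higher. The stalk proteins, which recruit translation factors to the large subunit, gave 0.04 ± 0.10 (RPLP0), 0.14 ± 0.10 (RPLP1) and -0.02 ± 0.07 (RPLP2), none past the test. RPL5 and RPL11, which bind the ribosomal RNA of the central protuberance and, outside the ribosome, the p53 ligase MDM2, gave 0.09 ± 0.08 and 0.04 ± 0.10, also not past it.

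In stripped serum with vehicle the knockdown libraries had lower levels of most members. Of the 77, 66 were lower and 11 higher than in NTC, with a median of -0.10 (all genes -0.00). The library median of the members had a pooled within-group SD of 0.11 in stripped serum, so the 66 are not separate results. Of the 77, 7 fell and 0 rose (9.09%, edgeR), where 34.6% of all genes were called, 19.1% lower and 15.5% higher. The share of members that fell was thus below that of all genes. Groups did not overlap for 19 members, all lower in the knockdown (24.7%, against 25.1% of all genes lower and 22.3% higher). The genes that fell were RPL4, RPL13A, RPS3, RPL27A, RPL3, RPL14 and RPL12, 6 of the large subunit and 1 of the small.

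RPL4, a large-subunit protein that lines the exit tunnel, fell furthest. It was 3223, 2876 and 2890 CPM in NTC and 2613, 2274 and 2404 CPM in the knockdown, every knockdown library below every NTC library. The difference was -0.30 ± 0.08 (edgeR adjusted p = 0.0066). RPL13A, which besides its place in the ribosome can silence translation of inflammatory messengers, was 1600, 1483 and 1505 CPM against 1324, 1232 and 1314 CPM (-0.25 ± 0.06, adjusted p = 0.0031). RPS3, at the messenger entry site, was 1083, 1002 and 942 CPM against 852, 853 and 866 CPM (-0.24 ± 0.08, adjusted p = 0.032). These groups did not overlap either. RPL3, which sits by the peptidyl transferase centre, was 3375, 3069 and 3111 CPM against 2855, 2627 and 2775 CPM (-0.21 ± 0.07, adjusted p = 0.027). RPL27A (-0.22 ± 0.07), RPL14 (-0.20 ± 0.06) and RPL12 (-0.18 ± 0.06), all of the large subunit, completed the set.

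At the other end RPL28 (0.07 ± 0.12), RPL31 (0.06 ± 0.17) and RPL34 (0.06 ± 0.20) were the highest and did not pass the test. RPLP0, RPLP1 and RPLP2 gave -0.15 ± 0.08, -0.10 ± 0.12 and -0.10 ± 0.14. RPL5 (-0.15 ± 0.06, adjusted p = 0.053), RPL11 (-0.12 ± 0.07), RPSA (-0.18 ± 0.09), RPS19 (-0.09 ± 0.14) and RPS6 (-0.02 ± 0.06) did not pass either. RPS19 is the gene most often mutated in Diamond-Blackfan anaemia, and RPSA encodes the small-subunit protein also known as the laminin receptor precursor.

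The replicate numbers paired the libraries here, and with the replicate block 12 members fell and 0 rose, the same 7 with RPL5, RPSA, RPLP0, RPL6 and RPS25, where 23.8% of all genes were called lower and 21.2% higher. With 1 library left out the count ran from 2 to 7. It was 2 without NTC replicate 1, 4 without NTC replicate 2 or knockdown replicate 1, and 3 without knockdown replicate 2 or 3. RPL4 and RPL13A passed in all 6 of these fits, and the members' median ran from -0.11 to -0.05. NTC replicate 1 had the highest member share of its group, 9.40% against 8.76% and 8.58%. It held the stripped-serum maximum of 20 members, and what sets it apart was not tested. With RPL13AP5 added, RPL13A still fell (-0.20, adjusted p = 0.033).

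With DHT and enzalutamide the same comparison called 2 members, both lower (2.60%, where 34.6% of all genes were called, 19.2% lower and 15.4% higher). These were RPL4, 3182, 2994 and 2912 CPM in NTC and 2671, 2292 and 2480 CPM in the knockdown (-0.29 ± 0.08, edgeR adjusted p = 0.0091), and RPL13A, 1558, 1564 and 1501 against 1393, 1244 and 1316 CPM (-0.23 ± 0.06, adjusted p = 0.0059). Neither gene's groups overlapped. Without overlap, 5 members were higher and 5 lower (22.8% and 25.8% of all genes). Of the 77, 54 were lower and 23 higher, with a median of -0.05. RPL21 (-0.31 ± 0.41) was lowest and RPS29 (0.20 ± 0.30), RPL34 (0.16 ± 0.20) and RPL31 (0.15 ± 0.17) were highest, none past the test. With the replicate block 7 fell (23.6% of all genes did), adding RPL3, RPSA, RPL6, RPL27A and RPL35, and with RPL13AP5 added RPL13A gave -0.24 (adjusted p = 0.012). RPL4 missed the threshold without NTC replicate 1 (-0.24, adjusted p = 0.053) or without knockdown replicate 2 (-0.23, adjusted p = 0.063), where 1 member passed, and 4 passed without knockdown replicate 1. The vehicle and enzalutamide comparisons share no library.

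**Figure D3:**
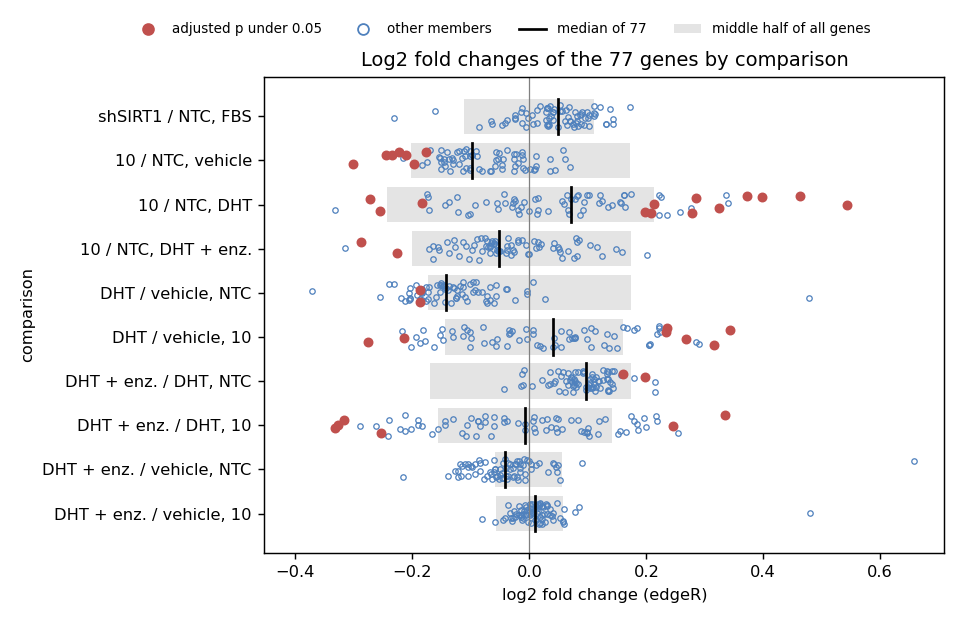
Log2 fold change of each of the 77 genes (x axis) in the 10 two-group comparisons (y axis); filled points have an edgeR adjusted p under 0.05, black bars mark the median of the 77 and grey bars the range from the first to the third quartile of all genes tested. The members lie mostly left of 0 for DHT in NTC (median -0.14) and right of 0 for added enzalutamide in NTC (0.10), and few pass the test in any comparison.

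In NTC cells members were slightly lower with DHT than with vehicle, and few passed the test. Of the 77, 74 were lower, with a median of -0.14 (all genes -0.00). Members shift together within a library, so the 74 are not separate results. The library median of the members had a pooled within-group SD of 0.11 in stripped serum. The members' share of counts was 8.91 ± 0.43% with vehicle and 8.05 ± 0.17% with DHT (SD, n = 3). The DHT libraries lay wholly below the vehicle libraries for 33 members (42.9%, against 21.1% of all genes) and wholly above for 0 (24.7% of all genes). Of the 77, 2 fell (2.60%) and 0 rose, where 29.9% of all genes were called, 12.5% lower and 17.4% higher. The large and small subunits had medians of -0.13 and -0.14. Other genes under 600 bases also lay lower in the DHT libraries, at medians of -0.03, -0.11 and -0.07 from the stripped-serum mean against 0.08, 0.00065 and -0.03 with vehicle, and the part of length in the members' difference was not tested.

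The 2 that fell were RPL5 and RPL13A. RPL5 was 1010, 917 and 889 CPM with vehicle and 876, 790 and 807 CPM with DHT (-0.19 ± 0.06, edgeR adjusted p = 0.021). RPL13A was 1600, 1483 and 1505 CPM against 1365, 1318 and 1346 CPM (-0.19 ± 0.06, adjusted p = 0.021), and with RPL13AP5 added it no longer passed (-0.10, adjusted p = 0.29). In each gene all DHT libraries lay below all vehicle libraries. RPL10, a late-joining large-subunit protein, was 1130, 1036 and 999 CPM against 951, 872 and 856 CPM (-0.24 ± 0.10, adjusted p = 0.068). RPS12 was 1156, 1065 and 987 CPM against 935, 898 and 856 CPM (-0.25 ± 0.15, adjusted p = 0.22). Neither pair of groups overlapped and neither passed the test.

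RPS29 had the lowest estimate (-0.37 ± 0.30), and RPL21 (0.48 ± 0.42), RPL8 (0.03 ± 0.06) and RPL35 (0.01 ± 0.08) were the only members above 0. RPL11 (-0.17 ± 0.07), RPS6 (-0.16 ± 0.06), RPS19 (-0.18 ± 0.14), RPSA (-0.07 ± 0.09), RPLP0 (-0.07 ± 0.08), RPLP1 (-0.12 ± 0.12) and RPLP2 (-0.11 ± 0.14) all lay below 0 and did not pass.

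How many members passed depended on how the spread was estimated. The counts of the fits in this paragraph are given without the share of all genes called lower in the same fit. They are therefore not read as a result about the members in particular. Fitted on these 6 libraries alone, without sharing the spread of the other stripped-serum groups, 20 members fell. The replicate block, whose numbers paired these libraries, called 10 lower and 0 higher (22.2% of all genes were higher), namely RPL5, RPL13A, RPS6, RPL3, RPL7A, RPL10, RPL11, RPL27A, RPL12 and RPL10A, and DESeq2 called 6. Without vehicle replicate 1, DHT replicate 2 or DHT replicate 3 the count was 0, and the median stayed between -0.18 and -0.09 over the 6 fits with 1 library left out. By limma on TPM the median was -0.076. KLK3, the androgen receptor target that encodes PSA, rose by 3.23 ± 0.15 in the same libraries (edgeR adjusted p = 4e-10).

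Enzalutamide added to DHT was measured against the same DHT libraries, so its values are not independent of those above. Of the 77, 72 were higher with enzalutamide, with a median of 0.10 (all genes 0.01), and groups did not overlap for 18, all higher (23.4%, against 21.7% of all genes higher and 24.3% lower). RPL13A and RPL5 rose (2.60%, where 29.2% of all genes were called, 12.6% higher and 16.6% lower). RPL13A was 1558, 1564 and 1501 CPM with enzalutamide (0.20 ± 0.06 from DHT alone, edgeR adjusted p = 0.015; 0.16, adjusted p = 0.090, with RPL13AP5 added). RPL5 was 940, 927 and 895 CPM (0.16 ± 0.06, adjusted p = 0.046). RPL10 (0.22 ± 0.10) and RPL28 (0.21 ± 0.12) had the highest estimates and RPL32 (-0.04 ± 0.08), RPL23A (-0.01 ± 0.07) and RPL14 (-0.01 ± 0.06) the lowest, none past the test. The replicate block called 4 higher, adding RPS6 and RPL28 (19.0% of all genes were). No member passed without DHT replicate 2 or enzalutamide replicate 2, and 1 passed without DHT replicate 3, enzalutamide replicate 1 or enzalutamide replicate 3.

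Against vehicle, NTC cells given DHT with enzalutamide differed in 0 members and in 0.00% of all genes (edgeR, either direction; 0 members at an unadjusted p under 0.05, and 0 by DESeq2 or limma on TPM). The members' median was -0.04, with 13 higher and 64 lower. RPS29 (-0.22 ± 0.30), RPL39 (-0.14 ± 0.17) and RPS27A (-0.13 ± 0.18) were lowest. RPL21 was highest at 0.66 ± 0.42, from 37.0, 42.1 and 39.9 CPM to 46.5, 65.7 and 75.4 CPM, the only member past 1.5-fold in any comparison of 2 groups with all libraries. Its groups did not overlap (1 member higher and 2 lower without overlap, against 4.73% and 4.34% of all genes), and with RPL21P28 added the estimate was -0.10. In knockdown 10 the same comparison also called 0 members, by edgeR, DESeq2 and limma on TPM (0 at an unadjusted p under 0.05; 0.00687% of all genes rose and 0.00% fell), with a median of 0.01, from RPL23A (-0.08 ± 0.08) to RPL21 (0.48 ± 0.42). No member's groups were without overlap there (4.79% of all genes higher, 4.61% lower).

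Under DHT, results for knockdown 10 rest on how its replicate 2 is treated. With all libraries 10 members were called higher and 3 lower than in NTC (13.0% and 3.9%, where 43.0% of all genes were called, 19.5% higher and 23.5% lower), with a median of 0.07. Without replicate 2, 3 were called higher and 21 lower (3.9% and 27.3%, where 18.1% of all genes rose and 21.1% fell), with a median of -0.08. RPL41, RPS26 and RPL28 were called higher in both fits, and RPL13A and RPL3 were among those called lower in both. RPL37, RPS24, RPS7, RPL38, RPL23A and RPL11 were among those called higher only with replicate 2 in the fit. Without knockdown replicate 1 instead, 26 were called higher and 2 lower, with a median of 0.13. The count was 8 without knockdown replicate 3, 7 without NTC replicate 1 and 6 without NTC replicate 2 or 3. For the fit without knockdown replicate 1 and for these, the share of all genes called is not given. The second fit has 2 knockdown libraries, and its estimate for a member rests on replicates 1 and 3, of which replicate 1 was the lowest of its set in short genes. With all libraries and the trend of fold change on transcript length over all genes taken off, the members' median was 0.0061.

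RPL41 was 1679, 1668 and 1877 CPM in NTC with DHT and 2147, 3109 and 2357 CPM in the knockdown. The knockdown libraries were all higher, and replicate 2 stood apart from its group. Of the 77 members, 7 were higher and 2 lower without overlap, against 21.8% and 25.2% of all genes. With only the 2 knockdown libraries left without replicate 2, 7 and 31 of the 77 were, against 27.6% and 30.4% of all genes. The difference of RPL41 was 0.54 ± 0.10 (edgeR adjusted p = 0.00039) with all libraries and 0.38 ± 0.08 (adjusted p = 0.0011) without replicate 2. RPS26 was 297, 268 and 270 CPM against 328, 427 and 325 CPM, 0.37 ± 0.09 and 0.23 ± 0.08 in those fits. RPL28 was 414, 324 and 356 CPM against 514, 494 and 433 CPM, 0.40 ± 0.12 and 0.38 ± 0.13, and here replicate 2 did not stand apart. RPL13A was 1365, 1318 and 1346 CPM against 1071, 1195 and 1071 CPM, -0.27 ± 0.06 and -0.32 ± 0.06, with replicate 2 the highest of the knockdown libraries and still below every NTC library. With RPL13AP5 added and all libraries in the fit its difference was -0.16 (adjusted p = 0.069).

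RPS19 was called only without that library. It was 408, 387 and 378 CPM in NTC with DHT and 302, 495 and 294 CPM in the knockdown, where replicates 1 and 3 lay below and replicate 2 above every NTC library. Its difference was -0.10 ± 0.14 (edgeR adjusted p = 0.56) with all libraries and -0.39 ± 0.07 (adjusted p = 0.00056) without replicate 2. RPLP2 was 351, 329 and 324 CPM against 265, 450 and 259 CPM, the same order of libraries, and gave -0.04 ± 0.14 and -0.35 ± 0.07. RPS12 (-0.36 ± 0.08), RPS14 (-0.29 ± 0.06) and RPL10 (-0.34 ± 0.07) were also called lower without replicate 2. RPL4 was not called in that fit (-0.11 ± 0.08, edgeR adjusted p = 0.32).

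**Figure D4:**
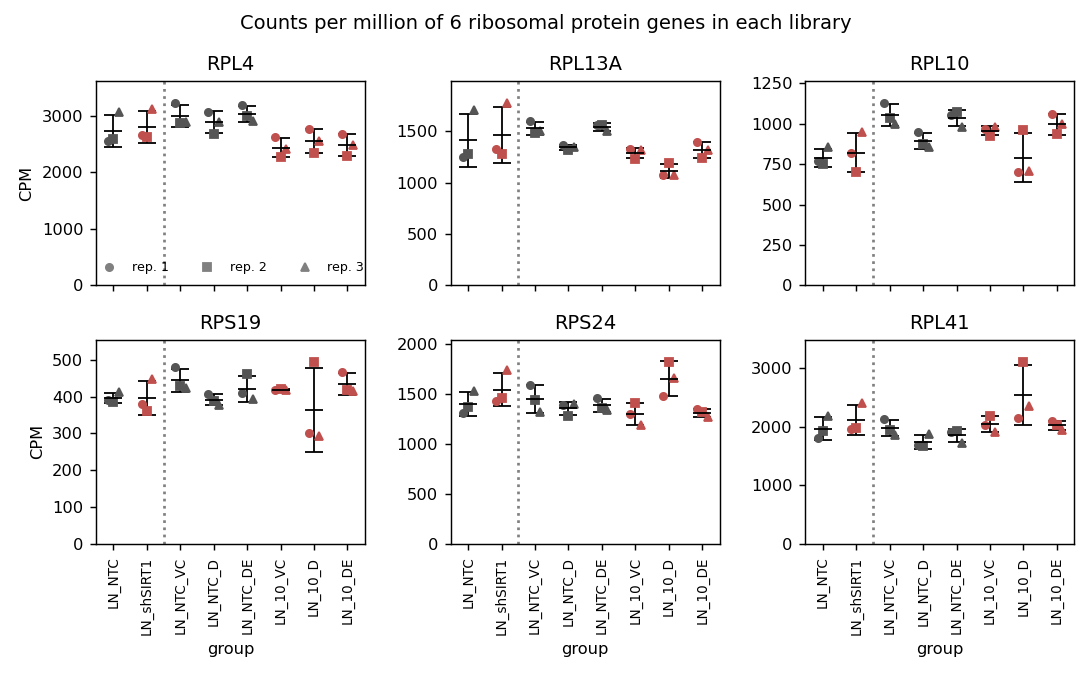
Level of RPL4, RPL13A, RPL10, RPS19, RPS24 and RPL41 in each library (y axis, CPM, from 0) by group (x axis); symbols give the replicate number, bars the mean of 3 libraries and whiskers 1 SD. RPL4 is lower in knockdown 10 than in NTC with vehicle and with DHT and enzalutamide, and RPL13A with every treatment in stripped serum. In LN_10_D replicate 2, RPS19 (495 CPM) and RPL41 (3109 CPM) lie above the other 2 libraries.

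The comparison of DHT with vehicle within knockdown 10 changed in the same way. With all libraries 5 members rose and 2 fell (6.49% and 2.60%, where 22.2% of all genes were called, 13.3% higher and 8.92% lower), with a median of 0.04. Without DHT replicate 2, 1 was called higher and 24 lower (1.30% and 31.2%, where 14.2% of all genes rose and 11.3% fell), with a median of -0.10. That library was singled out for its high member values, so leaving it out lowers the members' estimates here. The share called lower is therefore not read as a result about the members. The median in NTC, where no library was left out, was -0.14. Without DHT replicate 1 instead, 12 were called higher and 1 lower, with a median of 0.08. The count was 4 without DHT replicate 3, 3 without vehicle replicate 1 or 2 and 1 without vehicle replicate 3, and the fit on these 6 libraries alone called 0. The share of all genes called is not given for these fits or for the one without DHT replicate 1. With the trend on transcript length taken off, the median with all libraries was -0.0019.

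RPS24, a small-subunit protein mutated in Diamond-Blackfan anaemia, was 1306, 1411 and 1195 CPM with vehicle and 1477, 1826 and 1659 CPM with DHT. All 3 DHT libraries were higher. Of the 77 members, 7 were higher and 2 lower without overlap, against 17.5% and 14.1% of all genes. With only the 2 DHT libraries left without replicate 2, 7 and 36 of the 77 were, against 25.8% and 22.6% of all genes. RPS24 rose by 0.34 ± 0.08 (edgeR adjusted p = 0.0055) with all libraries and by 0.26 ± 0.08 (adjusted p = 0.029) without replicate 2. RPL32 (0.27 ± 0.08), RPL41 (0.32 ± 0.10), RPL23A (0.24 ± 0.08) and RPL35 (0.23 ± 0.08) rose with all libraries and were not called without replicate 2. RPL37 (0.29 ± 0.16) and RPS12 (-0.22 ± 0.15) were among the highest and lowest and did not pass. RPL10 was 969, 926 and 978 CPM with vehicle and 704, 964 and 705 CPM with DHT, -0.27 ± 0.10 (adjusted p = 0.048) with all libraries and -0.45 ± 0.07 (adjusted p = 0.00016) without replicate 2. RPL13A was 1324, 1232 and 1314 CPM against 1071, 1195 and 1071 CPM (-0.21 ± 0.06, adjusted p = 0.013; -0.28 ± 0.06 without replicate 2). RPL13A was lower in every DHT library than in every vehicle library, and RPL10 in replicates 1 and 3. With RPL13AP5 added RPL13A gave -0.07 (adjusted p = 0.56).

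RPS14 (-0.40 ± 0.06), RPS12 (-0.55 ± 0.08), RPS19 (-0.50 ± 0.07), RPL31 (-0.54 ± 0.08) and RPS29 (-0.95 ± 0.16) were called lower without replicate 2 and were not with it. RPS14 is the gene whose reduced dosage underlies the anaemia of a form of myelodysplasia. RPL5 (-0.08 ± 0.06), RPL11 (0.07 ± 0.07) and RPS6 (-0.03 ± 0.06) were not called in that fit.

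**Figure D5:**
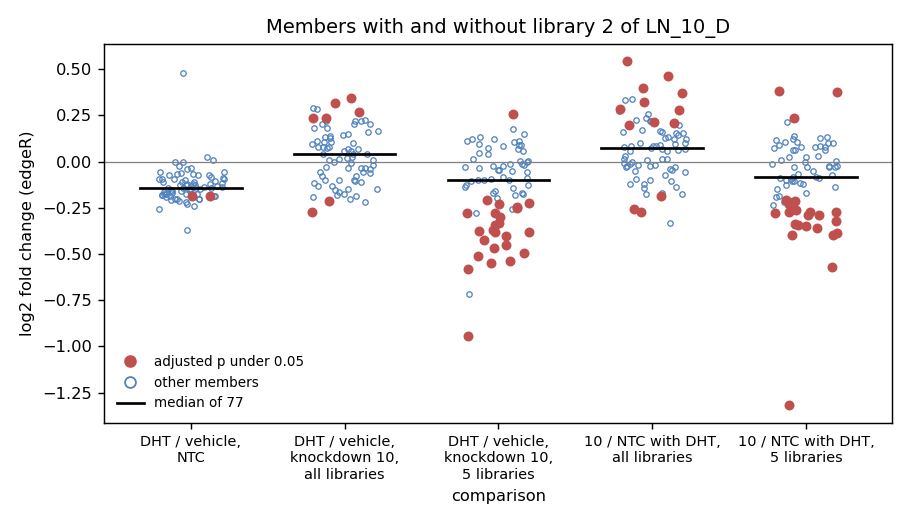
Log2 fold change of each of the 77 genes (y axis) for DHT against vehicle in NTC, for the same in knockdown 10 and for knockdown 10 against NTC with DHT (x axis), the last 2 with all 6 libraries and with 5, leaving out replicate 2 of LN_10_D; filled points have an edgeR adjusted p under 0.05 and bars mark medians. The medians of knockdown 10 move from 0.04 to -0.10 and from 0.07 to -0.08.

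Added enzalutamide in knockdown 10 was measured against those DHT libraries again. With all libraries RPL13A and RPL10 rose and RPS24, RPL41, RPL23A and RPL32 fell (2.60% and 5.19%, where 20.3% of all genes were called, 8.08% higher and 12.2% lower), with a median of -0.01. Without DHT replicate 2, 25 were called higher and 2, RPL23A and RPS24, lower (32.5% and 2.60%, where 10.7% of all genes rose and 14.0% fell), with a median of 0.11. RPL10 was 1063, 934 and 997 CPM with enzalutamide, 0.33 ± 0.10 (edgeR adjusted p = 0.019) and 0.51 ± 0.07 without replicate 2. RPL13A was 1393, 1244 and 1316 CPM, 0.24 ± 0.06 (adjusted p = 0.0060) and 0.31 ± 0.06, and with RPL13AP5 added and all libraries it did not pass (0.085, adjusted p = 0.44). RPS24 was 1351, 1320 and 1270 CPM, -0.33 ± 0.08 (adjusted p = 0.0076) and -0.25 ± 0.08. The numbers paired these libraries, and the replicate block called 3 higher and 8 lower (13.4% and 17.6% of all genes). Without DHT replicate 1, 1 was called higher and 14 lower, a fit for which the share of all genes called is not given.

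The test of whether DHT acted differently in knockdown 10 and in NTC called 0 members by edgeR (0.199% of all genes in either direction; 16 members at an unadjusted p under 0.05, 2 by DESeq2 and 0 by limma on TPM; 4 with the replicate block). The median of this difference of differences was 0.14 with all libraries, 67 positive and 10 negative (0.042 by limma on TPM, and 0.072 with the trend on transcript length taken off), and 0.04 without DHT replicate 2, 41 positive and 36 negative, where again 0 were called (0.612% of all genes). RPL41 (0.50 ± 0.15, adjusted p = 0.19), RPL37 (0.47 ± 0.23) and RPS27 (0.45 ± 0.24) had the highest estimates, and RPL21 (-0.19 ± 0.60) and RPS15 (-0.10 ± 0.15) were among the lowest. For enzalutamide against DHT the test called 0 by edgeR, DESeq2 and limma on TPM (0.350% of all genes; 11 members at an unadjusted p under 0.05). Its estimates ran from RPL41 (-0.42 ± 0.15), RPL37 (-0.39 ± 0.23) and RPL28 (-0.38 ± 0.16) to RPL10 (0.12 ± 0.14) and RPS19 (0.15 ± 0.19). Its median was -0.09 (-0.035 by limma on TPM, and -0.051 with the length trend taken off), and 0.02 without DHT replicate 2, where RPS19 alone was called (0.44 ± 0.10, adjusted p = 0.040; 0.857% of all genes higher and 0.340% lower). A response of the members that differs between the cells was thus not shown at 3 libraries a group.

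The 8 members of fixed interest had these levels over the 6 stripped-serum groups (CPM, mean ± SD, n = 3). RPLP0 ran from 2807 ± 128 in knockdown 10 with DHT to 3156 ± 230 in NTC with vehicle, RPLP1 from 857 ± 54.7 in NTC with DHT to 928 ± 56.1 in NTC with vehicle, and RPLP2 from 325 ± 109 in knockdown 10 with DHT to 362 ± 13.9 in NTC with vehicle. RPL5 ran from 809 ± 8.67 in knockdown 10 with DHT to 939 ± 63.7 in NTC with vehicle, and RPL11 from 592 ± 24.1 in NTC with DHT to 686 ± 68.8 in knockdown 10 with DHT, where replicate 2 was at 763 and the others at 630 and 666. RPS6 stood between 2134 ± 54.1 and 2167 ± 125 in 5 groups and at 1943 ± 107 in NTC with DHT. RPS19 ran from 364 ± 114 in knockdown 10 with DHT to 444 ± 32.0 in NTC with vehicle. RPSA was at 1446 ± 93.5 to 1495 ± 157 in the 3 knockdown groups and 1598 ± 147 to 1682 ± 151 in the 3 NTC groups. The wide SD of RPLP2 and RPS19 in knockdown 10 with DHT came with replicate 2, the highest of its group in both genes.

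Over the 6 stripped-serum groups the members whose group means ranged most were RPL21 (0.87 on the log2 scale), RPL41 (0.53), RPL13A (0.47), RPL10 (0.43), RPS29 (0.42) and RPL28 (0.40). The within-group SD was 0.06 for RPL13A, 0.14 for RPL41, 0.13 for RPL10, 0.16 for RPL28, 0.43 for RPS29 and 0.62 for RPL21. With all libraries the range of RPS29 was thus no wider than its spread between replicates, and that of RPL13A was. Without replicate 2 of knockdown 10 with DHT the ranges were 1.49 for RPL21, 0.37 for RPL41, 0.52 for RPL13A, 0.58 for RPL10, 0.96 for RPS29 and 0.38 for RPL28.

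Other genes of the translation machinery, from lists drawn up for this account, did not all move as the members did. FAU and GNB2L1, ribosomal proteins that carry other symbols, did not pass with vehicle between knockdown and NTC (-0.07 and -0.15) or for DHT in NTC (-0.19 and -0.13). Of 22 translation factors and related genes with TOP messengers, 0 rose and 9 fell in knockdown 10 with vehicle (40.9% lower, against 19.1% of all genes lower and 15.5% higher), median -0.14. Among them were HNRNPA1 (-0.54 ± 0.08, adjusted p = 5e-05), from 956 ± 28.7 to 656 ± 32.1 CPM, and NAP1L1 (-0.50 ± 0.08), from 606 ± 24.4 to 427 ± 12.0 CPM (SD, n = 3). With DHT in NTC 0 rose and 6 fell (27.3% lower, against 12.5% of all genes lower and 17.4% higher), among them EIF3F (-0.21 ± 0.05, adjusted p = 0.0042), EIF4A2 (-0.19 ± 0.06) and NACA (-0.21 ± 0.06), median -0.10. With DHT in knockdown 10, 2 rose, NAP1L1 (0.23 ± 0.08) and NPM1 (0.20 ± 0.07), and 1 fell, EIF3F (-0.28 ± 0.05), where 13.3% of all genes rose and 8.92% fell. Without DHT replicate 2, NAP1L1, NPM1, EIF3A and BTF3 were called higher and EIF3F (-0.32 ± 0.05) lower.

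Genes of the mitochondrial ribosome and of ribosome assembly had medians above 0 with DHT in NTC, where the members' median was -0.14, and no test compared the lists. Of 76 mitochondrial ribosomal protein genes, 18 rose and 1 fell (23.7% and 1.32%, against 17.4% and 12.5% of all genes), median 0.07, led by MRPL17 (0.51 ± 0.06, adjusted p = 9.7e-06), MRPS25 (0.38 ± 0.05) and MRPS12 (0.43 ± 0.07). In knockdown 10, where the members' median was 0.04, 13 rose and 1 fell (17.1% and 1.32%, against 13.3% and 8.92% of all genes), median 0.10, and without DHT replicate 2 12 were called higher and 5 lower, median 0.06. Of 22 genes for ribosomal protein chaperones and late assembly factors, 8 rose and 0 fell with DHT in NTC (36.4% higher), median 0.12, and 10 rose and 0 fell in knockdown 10 (45.5% higher; 10 and 2 without DHT replicate 2). RRS1 was at 32.9 ± 1.2 CPM with vehicle and 46.9 ± 2.79 with DHT in NTC (0.51 ± 0.07, edgeR adjusted p = 1.2e-05) and BRIX1 at 43.2 ± 1.85 and 60.9 ± 6.34 CPM (0.50 ± 0.08). RRS1 takes part in bringing the 5S particle of RPL5 and RPL11 into the large subunit, and BRIX1 is another assembly factor.

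Between knockdown 10 and NTC with vehicle these lists had medians below 0, and 15.5% of all genes rose and 19.1% fell. Of the mitochondrial genes 2 rose and 26 fell (2.63% and 34.2%, median -0.12), among them MRPL36 (-0.65 ± 0.08) and MRPS25 (-0.41 ± 0.05), and of the assembly genes 1 rose and 7 fell (4.55% and 31.8%). The 1 that rose was SBDS, the Shwachman-Diamond gene that readies the large subunit for joining, from 117 ± 7.52 to 174 ± 10.1 CPM (0.58 ± 0.07, adjusted p = 7.5e-06). Among 21 regulators of mTORC1 and of TOP messengers 3 rose and 3 fell (14.3% each, below the shares of all genes). Those that rose were TSC2 (0.25 ± 0.05) and SESN2 (0.50 ± 0.09), inhibitors of mTORC1, and the S6 kinase RPS6KB2 (0.25 ± 0.09). Those that fell were the other S6 kinase, RPS6KB1 (-0.29 ± 0.06), MTOR itself (-0.17 ± 0.06) and PDCD4 (-0.24 ± 0.09), an inhibitor of translation initiation. Of 10 small nucleolar RNA host genes 0 rose and 3 fell (30% lower), TAF1D (-0.43 ± 0.06), SNHG3 (-0.37 ± 0.08) and SNHG1 (-0.36 ± 0.08).

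Paralogs of members were few. Of 6 tested in stripped serum 1 fell in knockdown 10 with vehicle, RPL10L, at 4.70 ± 0.85 CPM in NTC and 2.52 ± 0.36 CPM in the knockdown (-0.90 ± 0.19, edgeR adjusted p = 0.0015). RPL22L1 was 357 ± 44.4 CPM with vehicle and 440 ± 19.0 CPM with DHT in NTC (0.30 ± 0.15, adjusted p = 0.15), and in knockdown 10 rose by 0.52 ± 0.15 (adjusted p = 0.021), where without DHT replicate 2 0 of the 6 paralogs were called. In FBS, of all these lists, only NMD3, the export adaptor of the large subunit, passed the test (0.46 ± 0.08, adjusted p = 0.015; 0.46 ± 0.06 without both libraries numbered 3). Without those libraries further genes of these lists were called, among them 11 of the 22 TOP genes higher and 1 lower, and 2 of the 76 mitochondrial genes higher and 14 lower. That fit has 2 libraries a group, and the share of all genes called in it is not given here. These counts are therefore not read as results about the lists.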

How the data were processed

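RNA-seq of 24 LNCaP libraries was quantified by the authors as RSEM expected counts and TPM per gene. The submitters' processing notes name CASAVA 1.8.2, RSEM 1.2.31 and hg19. The aligner and annotation are not given in the sources used here. The deposited expected counts were rounded and tested with edgeR 4.0.16 in R 4.3.3 (TMM factors, filterByExpr, quasi-likelihood test, Benjamini-Hochberg adjustment over all genes tested, threshold 0.05), separately for the 6 FBS and 18 stripped-serum libraries, with all groups of a set in 1 fit. Standard errors are the log2 fold change over the root of F. CPM are counts scaled to TMM-adjusted library totals. The deposited TPM entered levels per length and, as log2(TPM + 1), limma 3.58.1. DESeq2 1.42.0 was an alternative, as were other scalings, no filter, the replicate block and leaving out libraries. Summing rows that share reads, leaving out both FBS libraries numbered 3, leaving out replicate 2 of knockdown 10 with DHT for the other gene lists, ranges and overlaps, and taking off a lowess trend on transcript length were chosen after seeing the data. The scripts were tested on simulated data. The members and lists were chosen with earlier results of these data known.

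Named in each comparison were up to 3 called members of lowest adjusted p per direction, the 3 highest and 3 lowest estimates, 8 fixed members (RPLP0, RPLP1, RPLP2, RPL5, RPL11, RPS6, RPS19, RPSA) as levels or estimates, and members ranging most or most and least abundant. Other names were chosen after their values were seen. Same-numbered libraries deviated together in every pair (correlations 0.10 to 0.40) for FBS, knockdown with vehicle and with enzalutamide, DHT and enzalutamide in NTC, and both enzalutamide comparisons in knockdown 10. This was not so for knockdown with DHT, DHT in knockdown 10 or enzalutamide against vehicle in NTC, whose lowest pair was 0.05 to 0.10. Libraries of unlike number reached 0.15 in FBS and 0.13 for enzalutamide against DHT in NTC. The lowest same-numbered pairs there, 0.14 and 0.11, lay below these, so the pairing was weak in both. Results on some genes the rule would name are not reported here.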

Additional observations from a re-analysis of the deposited data

How the results depend on the processing

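Members called, out of 77, moved with the settings as follows, with the value of the reported fit first. With the replicate number as a block they went from 0 to 5 (FBS), 7 to 12 (knockdown with vehicle), 13 to 21 (knockdown with DHT), 2 to 7 (knockdown with enzalutamide), 2 to 10 (DHT in NTC), 7 to 12 (DHT in knockdown 10), 2 to 4 (enzalutamide in NTC), 6 to 11 (enzalutamide in knockdown 10) and 0 to 4 (interaction with DHT), and the block moved no other count by over 1.5 times. Fitted on the groups compared alone, the counts were 5 for knockdown with DHT, 4 for knockdown with enzalutamide, 20 and 0 for DHT in NTC and in knockdown 10, and 1 for enzalutamide in knockdown 10. Scaling by total counts gave 4 for knockdown with enzalutamide, 10 for DHT in NTC and 4 for enzalutamide in NTC. DESeq2 gave 6 for DHT in NTC and 2 for the interaction with DHT. Limma on TPM gave 5, 4 and 15 for knockdown with enzalutamide, DHT in NTC and enzalutamide in knockdown 10. Without the filter on low counts enzalutamide in NTC gave 1, and with the shared rows summed DHT and enzalutamide in NTC gave 1 each. The causes were not tested.

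With libraries left out the counts ran from 0 to 14 (FBS, both libraries numbered 3 included), 2 to 7 (knockdown with vehicle), 6 to 28 (with DHT), 1 to 4 (with enzalutamide), 0 to 2 (DHT in NTC), 1 to 25 (DHT in knockdown 10), 0 to 2 (enzalutamide in NTC), 4 to 27 (enzalutamide in knockdown 10) and 0 to 1 (interaction with enzalutamide). The median fold change ran from -0.081 to 0.13 for knockdown with DHT, -0.10 to 0.080 for DHT in knockdown 10, -0.075 to 0.11 for enzalutamide in knockdown 10 and -0.16 to 0.020 for the interaction with enzalutamide.

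Single members changed sign. Scaling by total counts gave -0.0096 for RPL35 with DHT in NTC, and 0.0022 for RPL23A and 0.0047 for RPL14 with enzalutamide in NTC. RPL21 with its pseudogene row added gave 0.18 for knockdown with DHT, -0.16 for DHT in NTC, -0.10 and -0.014 for enzalutamide against vehicle in NTC and in knockdown 10, and 0.28 for the interaction with DHT. With libraries left out RPL21 ran from -0.81 to 1.13 in FBS, -1.32 to 0.014 for knockdown with DHT and -1.19 to 0.17 for the interaction with DHT. In NTC, RPL35 ran from -0.052 to 0.071 and RPL8 from -0.0090 to 0.060 with DHT, RPL23A from -0.040 to 0.011 and RPL14 from -0.049 to 0.033 with enzalutamide, and RPS2 from -0.0038 to 0.12 for enzalutamide against vehicle. RPS2 ran from -0.042 to 0.17 for that comparison in knockdown 10, RPL37 from -0.048 to 0.47 for DHT in knockdown 10 and RPL34 from -0.044 to 0.12 for knockdown with vehicle. RPL21 was at 0 to 87.4 CPM in single libraries, with reads shared with RPL21P28.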
